A study of Mus musculus with 31 samples.

Results

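The loci of Hnf4a, Ctse and Lgals4 were examined in 3 windows of build mm9. The windows were given as coordinates for each gene and could not be checked against an mm9 annotation here: chr2:163280000-163450000 for Hnf4a (170 kb), chr1:133480000-133610000 for Ctse (130 kb) and chr7:29570000-29680000 for Lgals4 (110 kb). They held 230 of the 526837 peaks and islands in the 11 deposited lists. The study's title names a latent gastric program that Nkx2-1 represses, and the question put to these loci is where Nkx2-1, Foxa1/2 and 4 histone marks lie with and without Nkx2-1. The loci were picked with earlier results of these data known.

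Hnf4a is a nuclear receptor transcription factor of liver, stomach, gut and pancreas, and it is transcribed from alternative promoters. Ctse is cathepsin E, an aspartic protease of gastric epithelium, and Lgals4 is galectin-4, a sugar-binding lectin of the gastrointestinal lining. Nkx2-1 is a homeodomain factor of lung epithelium. Foxa1 and Foxa2 are forkhead factors of both lung and gut, able to bind closed chromatin. Of the marks, H3K27ac lies at active promoters and enhancers, H3K4me1 at enhancers, H3K4me3 at promoters and H3K27me3 at chromatin silenced by Polycomb.

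The tissue was lung adenocarcinoma of mice of mixed 129/B6 background, 4 to 7 months old, taken after viral infection of the airways. Positive tumors retained Nkx2-1 and deleted tumors had lost it. The labels describe tamoxifen at a low and a high dose without saying which mice received it, and the alleles that drive the tumors and the deletion are not given in the sources used here. Nkx2-1 was profiled in positive tumors, and Foxa1/2 (with 1 antibody against both) and the 4 marks in both tumor types, with 2 libraries in each group. Both files of a group held identical values, which makes each group 1 pooled list: no difference below has a replicate check, and no p-value was computed. For Foxa1/2 the positive tumors were from males and the deleted tumors from females, so that sex and tumor type cannot be told apart there. Each histone group held 1 male and 1 female. The 9 input libraries were left out.

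Peaks and islands counted as kept when they overlapped the other tumor type's list by at least 1 bp, lost when found in positive tumors only, and gained when found in deleted tumors only. Positions are given in kb from the first base of the window, followed by mm9 coordinates where a site is first named. Peak scores are the authors' own and rank peaks within 1 list only. The windows may also hold neighbouring genes. In the order of RefSeq genes (GRCm38.p6), Fitm2 and R3hdml precede Hnf4a and Ttpal follows it, Avpr1b and Rab7b flank Ctse, and Ech1 and Lgals7 flank Lgals4. That annotation is of another build than the files, so no peak or island below is assigned to a gene's start or body. The tumors were profiled whole, so that fewer marked cells and less of a mark per cell cannot be told apart.

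At Hnf4a, Foxa1/2 peaks were partly shared by the 2 tumor types. Positive tumors had 4 Foxa1/2 peaks and deleted tumors 6, of which 2 were kept, 2 lost and 4 gained. Over the whole lists, 58.1% of positive-tumor peaks were lost and 33.0% of deleted-tumor peaks gained. The lost peaks lay at 12.2 kb (chr2:163291783-163293154, score 313) and 17.5 kb (chr2:163296997-163297927, score 336). The highest gained peak lay at 52.5 kb (chr2:163332073-163333888, 1816 bp), with a score of 706 that exceeded 89.6% of its list. The other gained peaks lay at 61.5 kb (chr2:163340980-163341875, score 163), 86.5 kb (chr2:163366307-163366962, score 91) and 141 kb (chr2:163420822-163421602, score 108). The first 3 of the gained peaks therefore fell in the middle of the window and both lost peaks near its left edge.

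The kept Foxa1/2 peaks at Hnf4a lay at 40.0 kb in positive tumors and 40.1 kb in deleted tumors, and at 166 kb in both (chr2:163445786-163446744 in deleted tumors). Their summits were 31 and 13 bp apart. At 40 kb (chr2:163319207-163320578 in deleted tumors, chr2:163319287-163320337 in positive tumors) the deleted-tumor peak scored 949, the highest of the 15 in the 3 windows and above 93.5% of its list. The positive-tumor peak there scored 98, above 24.2% of its list. The 2 scores come from lists called separately and are not set against each other.

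Nkx2-1 had 4 peaks in the Hnf4a window, at 12.7 kb (chr2:163292130-163293136), 17.6 kb (chr2:163297006-163298881), 135 kb (chr2:163414834-163415540) and 166 kb (chr2:163445810-163446801). The peak at 17.6 kb, with a score of 1020, stood above 95.2% of the Nkx2-1 list. Both lost Foxa1/2 peaks overlapped an Nkx2-1 peak, as did 66.3% of all lost peaks, with summits 502 and 106 bp apart. None of the 4 gained Foxa1/2 peaks did, and only 7.91% of all gained peaks did, so neither count sets this window apart. The nearest Nkx2-1 summit to the gained peak at 52.5 kb was 34.9 kb away. No Nkx2-1 peak lay in the 118 kb between the summits at 17.6 and 135 kb. This stretch held 4 of the 6 deleted-tumor Foxa1/2 peaks, a share close to its share of the window's length (118 of 170 kb).

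**Figure D1:**
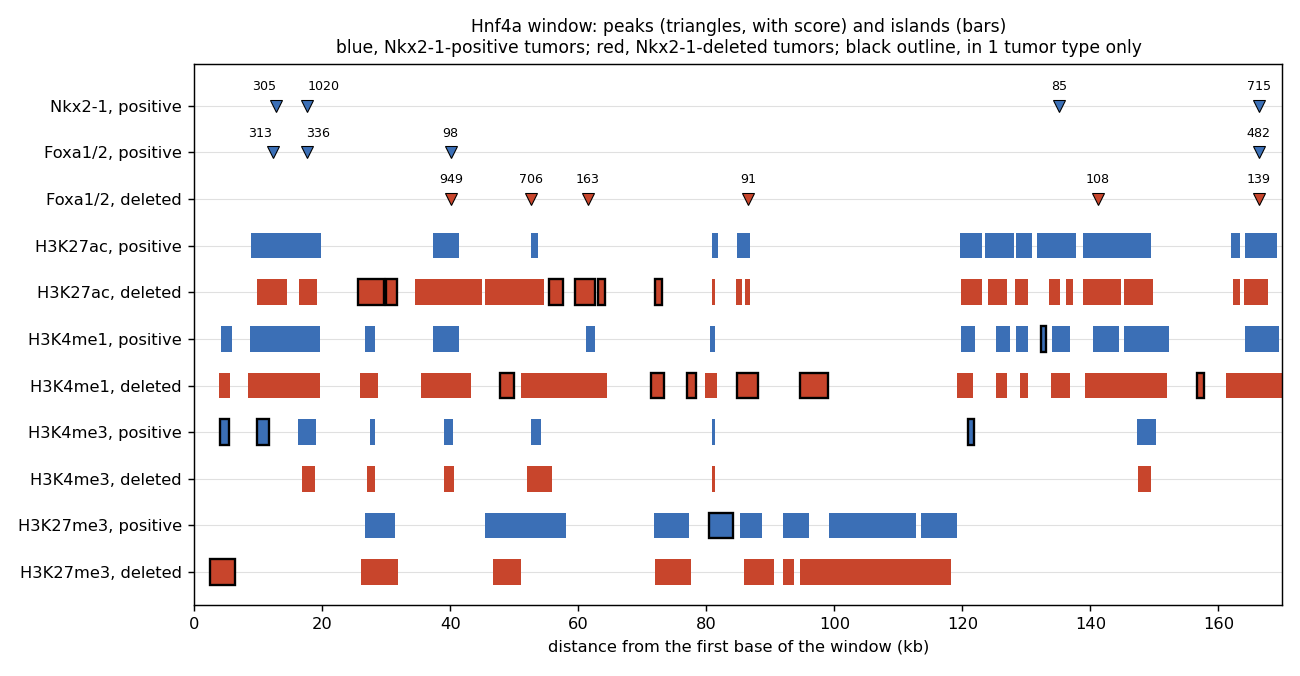
Peaks and islands of the Hnf4a window by distance from its first base (kb). Triangles mark peak summits with the authors' score, bars mark islands, blue is positive and red deleted tumors, and a black outline marks islands found in 1 tumor type only. Red H3K27ac and H3K4me1 bars lie at the Foxa1/2 peaks at 40.1, 52.5 and 61.5 kb, red H3K4me3 bars at the first and second of these, and H3K27me3 is missing from 52.5 kb in deleted tumors only.

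Islands of the active marks around the gained Foxa1/2 peak at 52.5 kb were longer and denser in deleted tumors. To compare levels, overlapping islands of both tumor types were joined into regions, and their reads were divided by all island reads of the list. The result is given as reads per 1000000 island reads. Reads outside islands are not in the lists, so a ratio of such sums joins called length and density and is no fold change of the whole region. The ratio of scaled reads per kb of island is therefore given beside it for many of the regions. H3K4me3 over 52.0 to 55.8 kb (chr2:163332001-163335800) had 79 reads in positive and 740 in deleted tumors, or 2.74 and 37.8 after this scaling. The ratio was 13.8-fold, with an exact 95% binomial interval of 10.9 to 17.7 that covers counting error only. Of all 28397 H3K4me3 regions called in both tumor types it had the highest ratio. Its islands spanned 1.6 kb in positive and 3.8 kb in deleted tumors, and per kb of island the ratio was 5.82-fold, rank 4.

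H3K4me1 and H3K27ac islands also differed around this site, mostly in length. H3K4me1 over 51.0 to 64.4 kb (chr2:163331001-163344400) had 70 reads in positive and 1148 in deleted tumors, a ratio of summed reads of 19.7-fold (15.5 to 25.5) and the highest of 56618 regions. Its islands covered 1.4 kb in positive tumors, at 61.2 to 62.6 kb, and 13.4 kb in deleted tumors, so that per kb the ratio was 2.06-fold, rank 231. H3K27ac over 45.4 to 54.6 kb (chr2:163325401-163334600) had 67 reads over 1 kb in positive and 1866 reads over 9.2 kb in deleted tumors. The ratio of these sums was 40.8-fold (32.0 to 52.9), rank 2 among 45597 regions, and per kb of island it was 4.44-fold, rank 7. The positive-tumor islands in these regions were small, so that the ratios rest on few reads on that side.

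The neighbouring H3K27ac region at 34.4 to 45.0 kb (chr2:163314401-163325000), around the kept Foxa1/2 peak at 40 kb, had 549 reads in positive and 3373 in deleted tumors. The ratio of the sums was 9.01-fold (8.23 to 9.88), rank 142 of 45597, with islands of 4.2 and 10.6 kb, and per kb it was 3.57-fold. H3K4me1 at 35.4 to 43.2 kb had 397 and 1039 reads, a scaled ratio of 3.15-fold (2.80 to 3.55) and of 1.70-fold per kb of island. H3K4me3 at 39.0 to 40.6 kb had 64 and 97 reads, a scaled ratio of 2.24-fold (1.61 to 3.12) and of 1.96-fold per kb. At 25.8 to 28.6 kb the H3K4me1 sum was 3.10-fold higher (2.55 to 3.79) and the density 1.77-fold, and an H3K27ac island of 4 kb with 573 reads was present in deleted tumors only (chr2:163305601-163309600).

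H3K27me3 was lower at this site in deleted tumors. Positive tumors had an island over 45.4 to 58.0 kb (chr2:163325401-163338000) with 469 reads, and deleted tumors an island over 46.6 to 51.0 kb with 158 reads. After scaling the summed reads were 3.17-fold lower in deleted tumors, which ranked 509 from the lowest among 32664 regions. Its density was alike, at 37.2 and 35.9 reads per kb, so the difference lay in the covered length, 12.6 against 4.4 kb. The gained Foxa1/2 peak at 52.5 kb lay under H3K27me3 in positive tumors and outside it in deleted tumors. Farther right, H3K27me3 from 92.0 to 119 kb kept a scaled ratio of 1.17-fold (1.07 to 1.28), and the bin from 100 to 110 kb was fully covered in both tumor types.

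In bins of 10 kb, H3K27ac islands took up 14% of the bases from 40 to 50 kb in positive tumors and 96% in deleted ones, and 10% and 74% of those from 50 to 60 kb. From 50 to 60 kb, H3K4me1 cover was 0% and 90%, and H3K27me3 cover 80% and 10%. At the ends of the window H3K27ac differed little or was lower. The widest positive-tumor island of H3K27ac, at 8.8 to 19.8 kb (chr2:163288801-163299800), held 2 Nkx2-1 peaks and both lost Foxa1/2 peaks. Its region had 2225 reads in positive and 935 in deleted tumors, 1.62-fold lower for the sums after scaling. The islands spanned 11 and 7.4 kb, and per kb of island the ratio was 0.916. H3K4me1 over 8.4 to 19.6 kb had a ratio of 0.962 (0.888 to 1.04). H3K27ac sums at 131.6 to 137.8 kb, which held the Nkx2-1 peak at 135 kb, were 2.77-fold lower in deleted tumors. The islands there covered 2.6 kb against 6.2 kb, and per kb of island the ratio was 0.862. H3K27ac at 138.8 to 149.8 kb had a ratio of 0.990 (0.925 to 1.06). H3K4me3 at 16.2 to 19.0 kb had 1410 and 1086 reads, a ratio of 1.14 (1.05 to 1.23) for the sums and of 1.59 per kb. Near 81 kb the H3K27ac sums at 80.8 to 81.8 kb were 2.01-fold lower, with 103 and 35 reads over 1 and 0.6 kb of islands. The H3K4me1 sums at 79.8 to 81.6 kb were 2.17-fold higher, with 85 and 153 reads over 0.8 and 1.8 kb. Per kb of island these ratios were 0.831 for H3K27ac and 0.963 for H3K4me1.

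The gained H3K27ac islands at Hnf4a lay at 25.6 to 29.6 kb, 30.0 to 31.6 kb (74 reads), 55.4 to 57.6 kb (144 reads), 59.4 to 62.6 kb (289 reads), 63.0 to 64.2 kb (52 reads) and 72.0 to 73.0 kb (48 reads). The gained H3K4me1 islands lay at 47.8 to 50.0 kb (122 reads), 71.4 to 73.4 kb (143 reads), 77.0 to 78.4 kb (65 reads), 84.8 to 88.0 kb (199 reads), 94.6 to 99.0 kb (185 reads) and 156.6 to 157.8 kb (71 reads). All but the last of these 12 lay in the stretch between the Nkx2-1 peaks at 17.6 and 135 kb. That stretch is 118 of the window's 170 kb. It also had less positive-tumor cover than the rest, which leaves more room there for islands without a positive-tumor partner. That cover was 20.5% against 54.3% for H3K27ac and 15.4% against 54.3% for H3K4me1. Lost in the window were an H3K4me1 island at 132.2 to 133.0 kb (58 reads) and H3K4me3 islands at 4.0 to 5.4 kb (52 reads), 9.8 to 11.6 kb (80 reads) and 120.8 to 121.8 kb (103 reads). H3K27me3 lost an island at 80.4 to 84.2 kb (116 reads) and gained one at 2.4 to 6.4 kb (126 reads).

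Split by Nkx2-1 binding, the stretch of the Hnf4a window without an Nkx2-1 peak (17.6 to 135 kb) and the rest differed in opposite directions for H3K27ac. Its cover was 20.5% in positive and 39.8% in deleted tumors in that stretch, and 54.3% and 42.8% in the rest of the window. H3K4me1 cover was higher in both, at 15.4% and 40.6% in the stretch and 54.3% and 67.6% in the rest. H3K27me3 cover was 45.3% and 39.0% in the stretch, and 0% and 7.62% in the rest.

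The RefSeq promoter table (GRCm38.p6) held sequences for Hnf4a, with 2 starts, and for Lgals4. They are shown because H3K4me3, the promoter mark, had its highest ratio in the Hnf4a window and because both windows had gained Foxa1/2 peaks. Each is the 250 bases before a start, on the plus strand, with matches to the searched words in capitals. The first lies before the first Hnf4a start along the chromosome (chr2:163506607-163506856), the second before the next one (chr2:163546905-163547154) and the third before the start of Lgals4 (chr7:28833544-28833793), all in GRCm38.p6 coordinates, which cannot be set against the mm9 positions above.
Hnf4a, first start: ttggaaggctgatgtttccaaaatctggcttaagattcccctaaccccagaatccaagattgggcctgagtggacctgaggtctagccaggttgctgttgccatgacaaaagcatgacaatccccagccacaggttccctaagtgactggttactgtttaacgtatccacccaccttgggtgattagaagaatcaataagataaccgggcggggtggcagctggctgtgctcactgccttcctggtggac
Hnf4a, second start: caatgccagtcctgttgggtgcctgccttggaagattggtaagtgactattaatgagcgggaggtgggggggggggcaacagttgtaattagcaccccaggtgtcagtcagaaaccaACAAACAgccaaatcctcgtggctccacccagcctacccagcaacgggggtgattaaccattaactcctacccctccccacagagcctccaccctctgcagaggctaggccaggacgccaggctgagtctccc
Lgals4: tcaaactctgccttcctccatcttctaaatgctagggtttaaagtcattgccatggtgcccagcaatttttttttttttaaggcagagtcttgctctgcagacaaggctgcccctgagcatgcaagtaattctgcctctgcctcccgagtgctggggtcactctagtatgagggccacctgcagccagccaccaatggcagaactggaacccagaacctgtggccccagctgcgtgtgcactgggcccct

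The words searched on both strands were TGTTTAC or TGTTTGC or TATTTAC or TATTTGC for forkhead factors, CAAGTG or CTCAAG for Nkx2-1, and CAAAGTCCA or CAAAGGTCA for Hnf4. None of these was in the 3 sequences. Of all 32851 promoters of this length, 11.9% held a forkhead word, 22.6% an Nkx2-1 word and 0.807% an Hnf4 word. Forkhead words that end in T (TGTTTAT or TGTTTGT or TATTTAT or TATTTGT), searched after the first result was seen, occurred once, as TGTTTGT on the minus strand at bases -133 to -127 of the second Hnf4a start. Such a word was in 16.1% of all promoters. In a list of 17 gastric and gut genes that includes the 3 loci, 12 genes had 14 promoters in the table, of which 5 held a forkhead word, 5 an Nkx2-1 word and 0 an Hnf4 word. In a list of 10 lung genes, 6 promoters of 6 genes gave 2, 3 and 0. Sequences under the peaks were not read, since no genome of the files' build was used here.

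At Lgals4 the active marks spread over more of the window in deleted tumors. H3K27ac islands covered 43.5% of the window in positive tumors against 69.5% in deleted ones, and for H3K4me1 the shares were 41.1% and 64.5%. The differences were 26.0 and 23.5 percentage points. Of all 18634 consecutive tiles of the same length that held any peak or island, 1.65% had at least 10 points more H3K27ac in deleted tumors and 1.73% at least 10 points more H3K4me1, and the median tile differed by -0.73 and -0.55 points. H3K27me3 had no island in the Lgals4 window in either tumor type.

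The spread lay mainly from 44.6 to 84.2 kb. H3K27ac over 44.6 to 59.4 kb (chr7:29614601-29629400) had 306 reads in positive and 2082 in deleted tumors, a scaled ratio of summed reads of 9.98-fold (8.85 to 11.3), rank 103 of 45597. The islands spanned 3.8 and 14.8 kb, and per kb the ratio was 2.56-fold. Over 61.2 to 68.4 kb (chr7:29631201-29638400) it had 59 reads over 1 kb and 890 reads over 7.2 kb, 22.1-fold for the sums (17.0 to 29.3, rank 10) and 3.07-fold per kb. Over 74.6 to 84.2 kb (chr7:29644601-29654200) it had 972 and 1723 reads, or 2.60-fold (2.40 to 2.82) for the sums and 1.52-fold per kb. H3K4me1 over 61.8 to 66.6 kb had 96 reads in positive and 454 in deleted tumors, 5.69-fold for the sums (4.56 to 7.17) and 2.37-fold per kb. At 85.2 to 86.6 kb the H3K4me1 sums differed by 3.28-fold, from 43 reads over 0.4 kb to 117 reads over 1.4 kb. Per kb of island the ratio there was 0.936. In bins of 10 kb, H3K27ac cover was 30% and 94% between 50 and 60 kb, and 10% and 72% between 60 and 70 kb. The gained H3K27ac islands lay at 71.4 to 74.2 kb (179 reads), 96.0 to 97.6 kb (55 reads) and 103.4 to 104.2 kb (50 reads), and the gained H3K4me1 islands at 56.6 to 57.6 kb (55 reads), 74.6 to 76.0 kb (146 reads) and 94.0 to 97.0 kb (98 reads). The widest island of any active mark in the window was H3K4me1 of deleted tumors at 26.4 to 55.0 kb (chr7:29596401-29625000, 3973 reads), where positive tumors had islands up to 48.2 kb.

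The left part of the Lgals4 window was already densely marked in positive tumors. H3K27ac over 9.4 to 34.2 kb had 6643 and 7265 reads (1.60-fold after scaling, 1.55 to 1.66), and H3K4me3 over 22.6 to 29.0 kb (chr7:29592601-29599000) had 4657 and 3672 reads, the most of any H3K4me3 region in the 3 windows (1.16-fold, 1.11 to 1.21). The H3K4me3 region at 39.2 to 43.4 kb (chr7:29609201-29613400) had 1137 and 896 reads, or 1.16-fold (1.06 to 1.27). At 80.4 to 81.6 kb H3K4me3 had 236 and 78 reads and was 2.05-fold lower for the sums and 1.71-fold per kb. H3K4me3 islands at 29.4 to 31.8 kb (104 reads) and 32.8 to 37.0 kb (186 reads) were lost, and 1 island at 48.8 to 50.8 kb (chr7:29618801-29620800, 84 reads) was gained. H3K4me3 cover of the window was 25.3% in positive and 18.2% in deleted tumors, a difference of -7.09 points. That sign depends on how much was called: when both lists were made to cover equal length by dropping the weakest islands of the longer one, the difference was 6.73 points.

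Foxa1/2 had 3 peaks in the Lgals4 window in positive tumors and 7 in deleted tumors, of which 2 were kept, 1 lost and 5 gained. The kept peaks lay at 17.4 and 19.1 kb (chr7:29586960-29587914 and chr7:29588626-29589601 in deleted tumors), with summits 19 and 52 bp apart, and the lost peak at 25.7 kb (chr7:29595179-29595998). The gained peaks lay at 41.5 kb (chr7:29611074-29611786), 42.6 kb (chr7:29612139-29612930), 47.9 kb (chr7:29617485-29618263), 75.1 kb (chr7:29644666-29645524) and 86.2 kb (chr7:29655754-29656348). Their scores of 66, 126, 63, 91 and 68 were low within the list, above 6.26%, 42.2%, 3.24%, 25.5% and 8.29% of it. With only the upper 50% of each list by score, none of these 5 peaks remained. The peak at 19.1 kb was then still kept, and the deleted-tumor peak at 17.4 kb counted as gained because its positive-tumor partner dropped out.

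Nkx2-1 had 6 peaks in the Lgals4 window, at 17.4, 19.1, 24.3, 35.5, 41.0 and 42.6 kb. All lay in the left part, and none in the 67.4 kb right of 42.6 kb. Of these, 3 overlapped a positive-tumor Foxa1/2 peak and 4 a deleted-tumor one. The gained Foxa1/2 peaks at 41.5 and 42.6 kb overlapped Nkx2-1 peaks of positive tumors (chr7:29610613-29611387, score 97, and chr7:29612273-29612918, score 65), with summits 456 and 15 bp apart. The other 3 gained peaks overlapped none. In the stretch right of 42.6 kb H3K27ac cover was 17.8% in positive and 57.0% in deleted tumors, and in the rest of the window 84.0% and 89.2%.

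**Figure D2:**
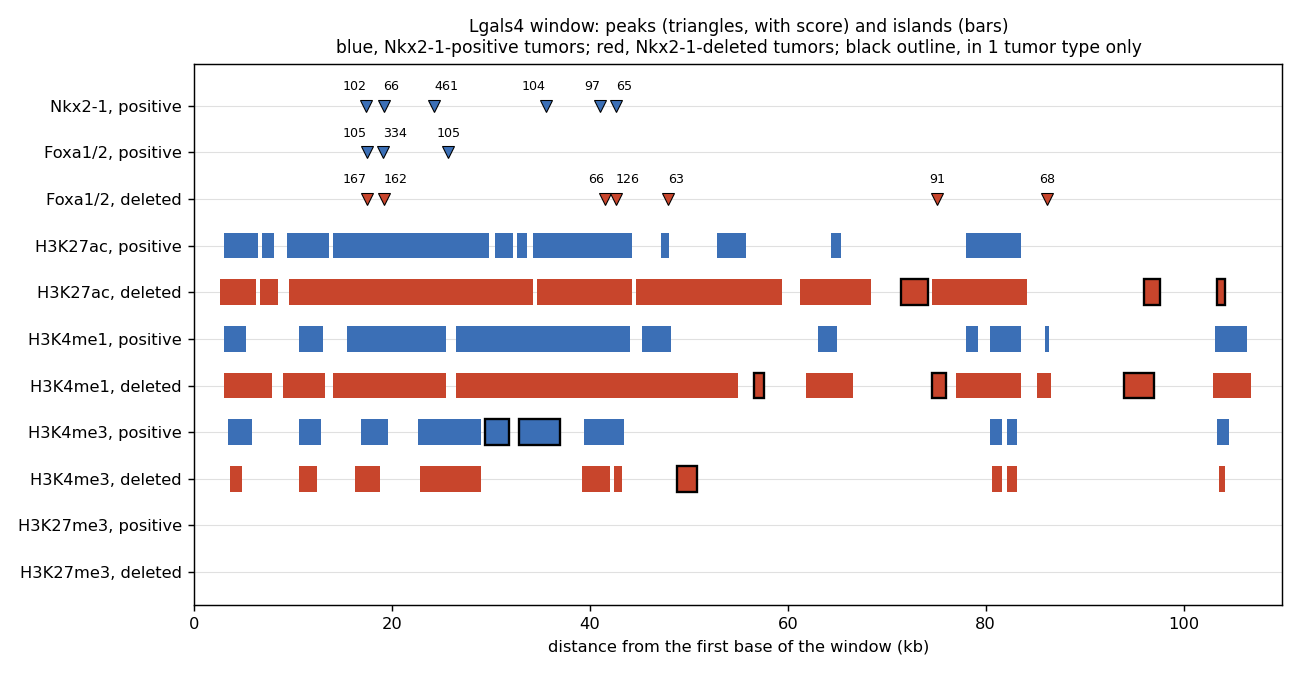
Peaks and islands of the Lgals4 window by distance from its first base (kb), drawn as for Hnf4a. The red H3K27ac bars run from 9.6 to 84.2 kb with short gaps, while the blue ones thin out right of 44.2 kb, and the H3K27me3 lanes are empty.

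At Ctse the differences in cover were small. H3K27ac islands covered 9.69% of the window in positive tumors and 8.62% of it in deleted tumors. Cover was 14.6% and 11.8% for H3K4me1, 4.31% and 3.85% for H3K4me3, and 27.4% and 31.8% for H3K27me3. None of these differences reached 10 points. The median tile of this length differed by -0.923 points in H3K27ac cover.

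Foxa1/2 had no peak in the Ctse window in positive tumors and 2 in deleted tumors, both gained. The peaks lay at 29.3 kb (chr1:133508898-133509730, score 77) and 78.4 kb (chr1:133558044-133558840, score 68), and stood above 16.2% and 8.29% of their list. Neither remained when only the upper 50% of each list was used. Nkx2-1 had 1 peak, at 129 kb (chr1:133608643-133609609, score 221), which no Foxa1/2 peak overlapped. In the 129 kb left of its summit, H3K27ac cover was 9.12% in positive and 8.03% in deleted tumors. H3K4me1 cover there was 14.1% and 11.3%. This stretch without an Nkx2-1 peak therefore had no rise in either mark. The rest of the Ctse window was only 0.824 kb, with 100% H3K27ac cover in both tumor types, so it could show no direction. At Hnf4a H3K27ac went in opposite directions in the stretch and the rest, and at Lgals4 it was higher in both.

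The Foxa1/2 peak at 29.3 kb lay at the one place in the Ctse window where summed island reads of active marks were at least 2-fold higher in deleted tumors. H3K27ac over 28.8 to 31.4 kb (chr1:133508801-133511400) had 79 reads in positive and 136 in deleted tumors, a scaled ratio of 2.52-fold (1.90 to 3.38), but of 1.17-fold per kb, since the islands spanned 1.2 and 2.6 kb. H3K4me1 over 28.6 to 30.8 kb (chr1:133508601-133510800) had 147 and 278 reads, or 2.28-fold (1.86 to 2.80), and 1.86-fold per kb. H3K4me3 was present there in both tumor types, with 95 and 66 reads and a ratio of 1.02 (0.737 to 1.42). H3K27me3 reached from the left edge to 28.8 kb in positive tumors with 1 gap, and to 25 kb in deleted tumors. Its cover from 20 to 30 kb was 88% and 50%, and from 0 to 10 kb 72% and 100%. The joined H3K27me3 region up to 28.8 kb had a ratio of 1.04 (0.965 to 1.12).

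Elsewhere in the Ctse window the regions of active marks had ratios from 0.463 to 1.16. H3K4me3 over 105.2 to 108.2 kb (chr1:133585201-133588200) had 478 and 150 reads, 2.16-fold lower for the sums and 1.44-fold per kb. H3K27ac over 103.8 to 110.0 kb and 127.2 to 134.6 kb had ratios of 0.623 and 0.563, the second around the Nkx2-1 peak and running past the window's edge. Per kb of island these ratios were 1.02 and 0.718. At 78.4 kb the second gained Foxa1/2 peak lay under an H3K27ac island of 1.2 kb (chr1:133558401-133559600, 65 reads) and an H3K27me3 island of 5.6 kb (chr1:133555801-133561400, 167 reads), both found in deleted tumors only. The other gained islands were H3K4me1 at 40.0 to 41.2 kb (68 reads) and 87.4 to 89.8 kb (90 reads) and H3K27me3 at 112.8 to 115.6 kb (94 reads). Lost were H3K27ac at 117.2 to 117.8 kb (48 reads) and H3K4me1 at 95.8 to 97.2 kb (122 reads) and 117.0 to 120.4 kb (144 reads).

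**Figure D3:**
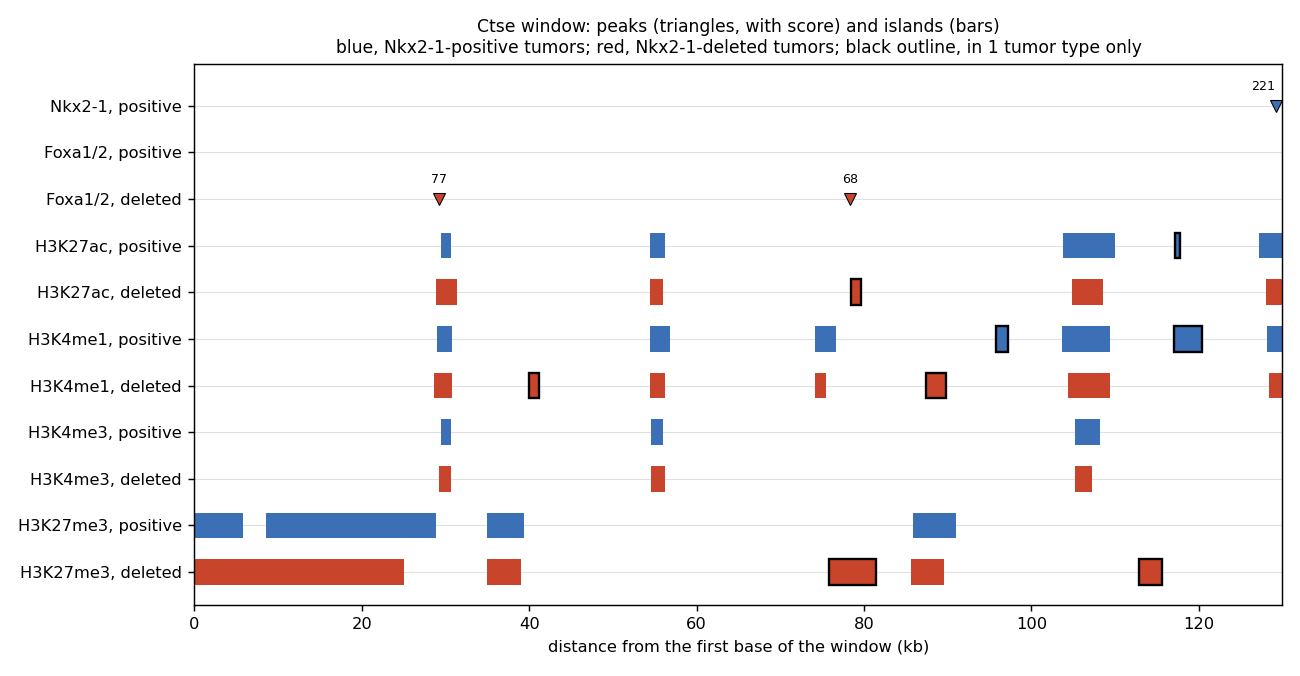
Peaks and islands of the Ctse window by distance from its first base (kb), drawn as for Hnf4a. The blue Foxa1/2 lane is empty, the red one holds peaks at 29.3 and 78.4 kb, and H3K27me3 fills most of the first 25 kb in both tumor types.

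Over the 3 windows, 11 of 15 deleted-tumor Foxa1/2 peaks were gained, where 33.0% of all deleted-tumor peaks were, and 3 of 7 positive-tumor peaks were lost, against 58.1% of all. Each window had more Foxa1/2 peaks in deleted than in positive tumors, although the deleted list is the shorter one. This was so for 10.6%, 10.1% and 9.77% of tiles as long as the Hnf4a, Ctse and Lgals4 windows. The tiles held any peak or island, and the median tile of each length had 0 deleted-tumor Foxa1/2 peaks. Many tiles could therefore not have more peaks in deleted tumors, which lowers these shares. The excess rests partly on weak peaks, since 7 of the 11 gained peaks scored under 100. With only the upper 50% of each list, Hnf4a had 0 kept, 3 lost and 3 gained peaks. The kept peak at 40 kb then counted as gained and that at 166 kb as lost, because a partner of each dropped out. Ctse then had 0 peaks in either tumor type, so the excess remained at Lgals4 only. Of the gained peaks, 2 overlapped an Nkx2-1 peak, both at Lgals4, against 7.91% of all gained peaks, and 3 lay under H3K27ac in deleted tumors only, against 17.0%. A further 7 lay under H3K27ac in both tumor types (64.7% of all gained peaks), among them the peak at 52.5 kb of Hnf4a with its small positive-tumor island. All 3 lost peaks overlapped an Nkx2-1 peak, as did 66.3% of all lost peaks, and all 3 lay under H3K27ac and H3K4me1 in deleted tumors, as did 67.0% of all.

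Nkx2-1 had 11 peaks in the 3 windows. Of these, 6 were shared with Foxa1/2 of positive tumors (47.6% of all Nkx2-1 peaks) and 5 with Foxa1/2 of deleted tumors (19.1% of all). All 11 lay under H3K27ac and H3K4me1 in both tumor types, as did 78.7% of all Nkx2-1 peaks, and all 11 lay outside H3K27me3 in both, as did 96.2% of all.

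In counts of islands, H3K27ac had 1 lost and 10 gained in the 3 windows, of 28 in positive and 37 in deleted tumors. Over the whole lists 32.3% were lost and 10.8% gained. H3K4me1 had 3 lost of 31 and 11 gained of 36 (23.1% and 8.39% of all). H3K4me3 had 5 lost of 22 and 1 gained of 19 (31.5% and 3.24% of all). H3K27me3 had 1 lost of 12 and 3 gained of 12 (19.8% and 17.8% of all). Of the gained H3K27ac islands 6 lay at Hnf4a, 1 at Ctse and 3 at Lgals4. The H3K27ac regions with the highest ratios were not among them, since a short positive-tumor island overlapped each.

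For Hnf4a as a whole, H3K4me1 cover was 27.4% in positive and 48.9% in deleted tumors, 21.5 points higher, where 1.10% of 12467 tiles of that length were at least 10 points higher. H3K27ac cover was 30.9% and 40.7%, 9.76 points higher and just short of the 10 points used as a call. H3K4me3 and H3K27me3 cover of the Hnf4a window differed by -1.88 and -2.00 points, and for H3K4me3 the difference was 3.18 points with lists of equal covered length.

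**Figure D4:**
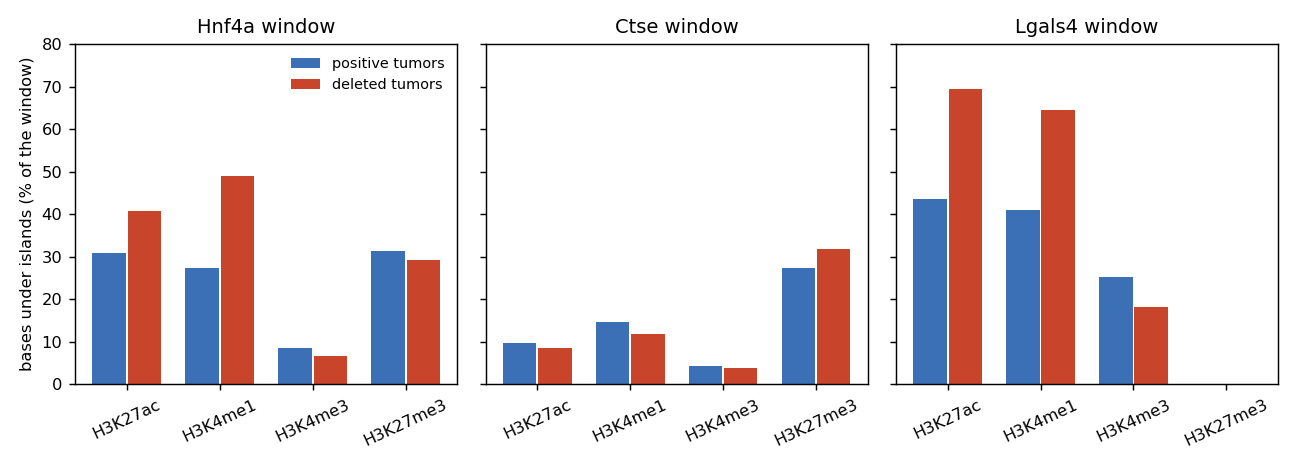
Bases under islands as a percentage of each window, by mark, in positive (blue) and deleted (red) tumors; each bar is 1 pooled list without error. H3K27ac and H3K4me1 bars are taller in deleted tumors at Hnf4a (40.7% and 48.9%) and Lgals4 (69.5% and 64.5%), while at Ctse all pairs differ by under 5 points.

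Among regions called in both tumor types, 6 of 23 H3K27ac regions in the windows had summed reads at least 2-fold higher in deleted tumors and 2 lower, against 8.88% and 17.6% of all H3K27ac regions. For H3K4me1, 7 of 25 were higher and 0 lower (5.15% and 7.22% of all). For H3K4me3, 2 of 17 were higher and 2 lower (0.560% and 12.6% of all), both higher ones at Hnf4a. For H3K27me3, 0 of 8 were higher and 1 lower (2.85% and 7.02% of all). The median log2 ratio over the windows' regions was -0.02 for H3K27ac, 0.51 for H3K4me1, 0.04 for H3K4me3 and 0.07 for H3K27me3, against -0.06, 0.05, -0.09 and -0.01 over all regions. For H3K27ac the windows differed, with medians of -0.54 at Hnf4a, -0.52 at Ctse and 0.68 at Lgals4.

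By scaled reads per kb of island, fewer regions passed 2-fold. For H3K27ac 4 were higher and 0 lower (3.40% and 1.29% of all regions), 2 each at Hnf4a and Lgals4. For H3K4me1 2 were higher and 0 lower (0.611% and 0.805%), for H3K4me3 1 and 0 (2.35% and 0.845%), and for H3K27me3 0 and 0 (0.0153% and 0.00612%). The single H3K4me3 region was that at 52.0 to 55.8 kb of Hnf4a.

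**Figure D5:**
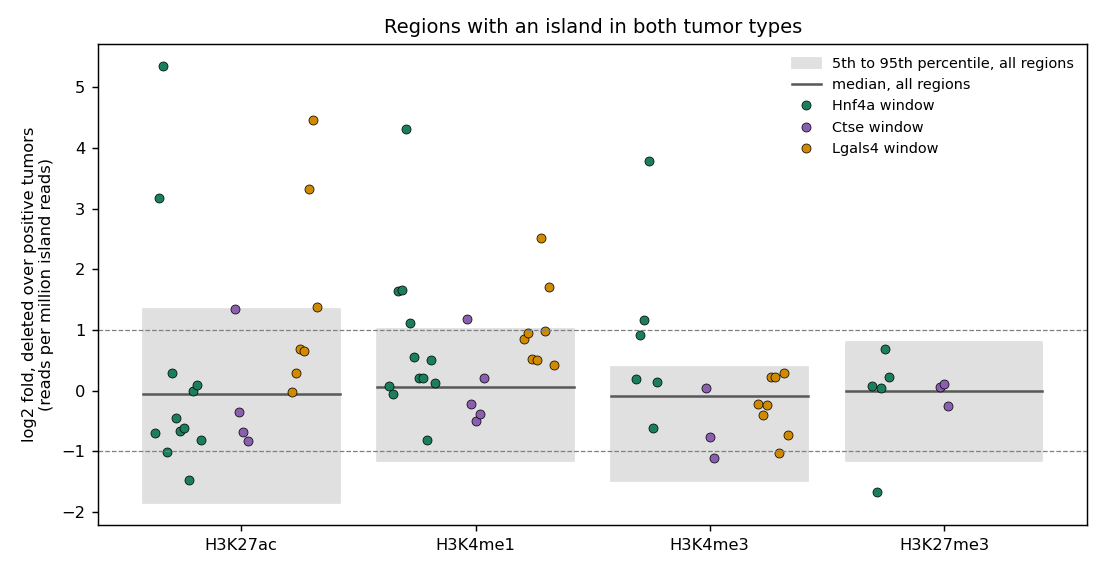
Log2 ratio of summed island reads after scaling, deleted over positive tumors, for every region of the 3 windows with an island in both tumor types (dots, colored by window). Grey bands span the 5th to 95th percentile of all regions of the mark, grey lines are their medians, and dashed lines mark a 2-fold difference; the highest dots are Hnf4a regions at 5.35 (H3K27ac), 4.30 (H3K4me1) and 3.79 (H3K4me3).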

How the data were processed

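Per the file headers and names, each deposited list is a merged one: peaks with a p of 1e-06, and islands at an FDR of 0.01 in 200 bp windows, with gaps of 600 bp allowed for H3K4me1 and H3K27me3 and of 200 bp for the other marks. The H3K27ac and H3K27me3 lists of deleted tumors have no header line, and only their names say merged. Build mm9 and the tools SICER 1.1, MACS 1.4.2 and Bowtie stand in the submitters' processing notes, with no step given for each. Each deposited peak carries the authors' score, at least 60, and each deposited island a read count, not scaled for depth. The 22 files fell into 11 identical pairs, 1 list per group. Reads inside islands (18.5 to 45.7 M per list) are the only depth the lists give.

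Overlap, cover, tiles and scaled reads were computed with Python 3.11.15, numpy 2.4.6 and scipy 1.17.1, and figures with matplotlib 3.10.9; the functions were checked on simulated lists. Regions with islands in 1 tumor type only have no ratio. Islands that cross a window's edge were counted whole in reads and cut to the window in cover. All peaks in the windows were listed, with every lost or gained island, every region past 2-fold in summed reads and some of the widest islands that the rule also named. The members and lists were chosen with earlier results of these data known.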

Additional observations from a re-analysis of the deposited data

How the results depend on the processing

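No direction past the call of 10 points of cover in the main results turned under any alternative. H3K4me3 cover at Lgals4 was short of that call in the main results. It differed by -10.2 points with the upper 50% of each list and by 6.73 points with lists of equal covered length. Over 207 recomputed values, 45 moved by more than the set margin (1.5 times for counts, 5 points for cover), and overlaps of 50% of the shorter interval or summits within 200 bp moved none. With the upper 50% of each list, Hnf4a kept 0 Foxa1/2 peaks, since a partner of each kept peak dropped out. It shared 0 Nkx2-1 peaks with deleted-tumor Foxa1/2. Ctse had 0 gained. Lgals4 had 1 kept, 0 lost and 1 counted as gained since its partner dropped out. It had 1 Nkx2-1 peak and 0 shared with either Foxa1/2 list. There, cover differences at Hnf4a were 4.59 points for H3K27ac and 15.4 for H3K4me1, at Ctse -0.768 for H3K27me3 and at Lgals4 18.2 for H3K4me1. Islands kept, lost and gained were then 14, 3 and 5 for H3K27ac, H3K4me1 had 13 kept and 5 gained, H3K4me3 5 kept, and H3K27me3 4 kept and 1 gained. With windows shortened by 10% at each end, Hnf4a had 1 kept and 1 lost Foxa1/2 peak and 2 Nkx2-1 peaks, 1 shared with positive- and 0 with deleted-tumor Foxa1/2; Ctse had 0 Nkx2-1 peaks; H3K27ac cover at Hnf4a rose by 15.4 points; and 0 H3K27ac and 3 H3K4me3 islands were lost. With lists cut to equal covered length, H3K4me3 cover changed by 3.18 points at Hnf4a and 6.73 at Lgals4, both in favor of deleted tumors, and H3K27ac at Lgals4 by 34.0; the cut drops islands from the longer list, which is that of positive tumors. Islands over the summit left 2 of 4 gained peaks under H3K4me3 in positive tumors. Centring ratios on the median of all regions, added after seeing the data, left 1 H3K27ac and 1 H3K4me3 region at least 2-fold lower. Ratios per kb of island, also added, left 0 H3K27ac, 0 H3K4me3 and 0 H3K27me3 regions lower and 2 H3K4me1 and 1 H3K4me3 regions higher; the cause is that island length then no longer counts.

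No paired analysis was possible because the 2 files of each group are identical and hold no value per library; leaving out a library was not run for the same reason. Scaling by island reads depends on how much was called, and total read depth was not known.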
